A study of Homo sapiens with 2 samples.

Results

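Ribosome biogenesis and nucleolar genes were compared between CREB1 knockout and CREB1 wild-type HCT116 cells, a human colorectal carcinoma line, with 1 total RNA library of each genotype. The knockout cells were 1 clone kept after transfection with a plasmid encoding nickase Cas9 and guide RNAs against CREB1, a transcription factor of cAMP signalling, and the wild-type cells were HCT116, with no statement of whether they were also grown from a single cell. Both were cultured alike in serum-containing DMEM, and ribosomal RNA was depleted before stranded library preparation. The genes were chosen as a list of 40 symbols for nucleolar proteins, ribosomal RNA (rRNA) processing factors and RNA polymerase I components, of which 39 matched 1 of the 57820 gene identifiers in the deposited table. BOP1, a large subunit processing factor, matched none and was not analysed here. All 39 passed the filter of a mean of at least 1 CPM (count scaled to library depth), as 12886 genes of the whole table did.

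Ribosomes are built in the nucleolus. RNA polymerase I transcribes a long rRNA precursor there, small nucleolar ribonucleoproteins (snoRNPs) guide its methylation and pseudouridylation, and processing factors cleave it and join it to ribosomal proteins to give the small and the large subunit. Proliferating tumour cells are known for enlarged nucleoli and high expression of this machinery, and many of its genes are known targets of the transcription factor MYC.

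The deposited expected counts, which are estimates of reads per gene, summed to 31178312 in the knockout and 34511071 in the wild-type library. CREB1 itself had 499 counts in the knockout and 614 in the wild-type library, and a count over a whole gene does not show a small insertion or deletion, so it does not check the genotype. Epithelial markers were present, with EPCAM at 91.6 CPM in the knockout and 93 CPM in the wild-type library and KRT8 at 1582 CPM in the knockout and 1822 CPM in the wild-type library, whereas CDX1 had 0 counts in both and VIL1 had 9 knockout and 12 wild-type counts. Of markers of other cell types, PTPRC, CD3E and COL1A2 had 0 counts in both libraries, whereas COL1A1 had 89 knockout and 83 wild-type counts, PDGFRB had 2 knockout and 5 wild-type counts, and the macrophage marker CD68 had 1.4 expected counts in the knockout and 32.72 in the wild-type library. The part of these markers in the results was not tested. All ratios below are log2 ratios of TMM-scaled CPM, knockout over wild-type, with a 95% Clopper-Pearson interval that covers counting error only. With 1 library per genotype there is no spread between replicates, no test was made, and a difference between the genotypes cannot be told apart from one between cultures, clones or library preparations. In bulk RNA, fewer cells that express a gene and less RNA per cell cannot be told apart.

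The ribosome biogenesis genes were expressed at similar levels in both genotypes, and the differences that were seen were small. None of the 39 was 2-fold lower or higher in the knockout library, where 1.64% of all expressed genes were at least 2-fold lower and 1.28% at least 2-fold higher with an interval that left out 0. At a smaller size, 6 genes were at least 20% lower in the knockout library and 0 were at least 25% higher, which is the same fold in each direction, with an interval that left out 0. The 6 were LYAR, GNL3, UTP14A, DDX21, NPM1 and RRP9, and they made up 15.4% of the genes, near the 13.1% of all expressed genes that met the same rule. For the higher direction, the share was 14.1% of all expressed genes. An alternative background was chosen after seeing the data. It held the 9050 protein-coding genes with a mean CPM between those of the lowest and the highest of the 39. Of these, 11.3% were lower and 13.2% higher by the same rule. At 2-fold, 51 of the 9050 were lower and 65 higher with an interval that left out 0. Shares this small lie near 0 of 39 genes, so that count does not set the 39 apart.

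As a group the 39 genes lay slightly toward the wild-type side. The log2 ratio was below 0 for 27 of them (69.2%), compared with 48.8% of all expressed genes. Their median log2 ratio was -0.07 and that of all expressed genes 0.01. Total-count in place of TMM scaling moved all genes alike, to a median of 0.00 for the 39, with 48.7% of them below 0, and of 0.08 for all expressed genes, with 39.2% below 0. The offset between the medians was kept, as it must be where all ratios move alike, while the side of 0 was not. The shares below 0 lay closer together than with TMM scaling. The SD of the ratios across the 39 genes was 0.21 on the log2 scale. Counting intervals lay below 0 for 19 genes and above 0 for 6, and included 0 for 14. Of all 12886 expressed genes, intervals lay below 0 for 3283 and above 0 for 3400, and included 0 for 6203. Intervals narrow with higher counts, and the median level was 57.6 CPM over the 39 and 15.1 CPM over all expressed genes. Of the 9050 protein-coding genes in the level range of the 39, intervals lay below 0 for 2509 and above 0 for 2698. They included 0 for 3843. Summed over the 39 genes, the level was 3446 CPM in the knockout and 3862 CPM in the wild-type library, and 47.5% of this difference came from NPM1 alone.

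**Figure D1:**
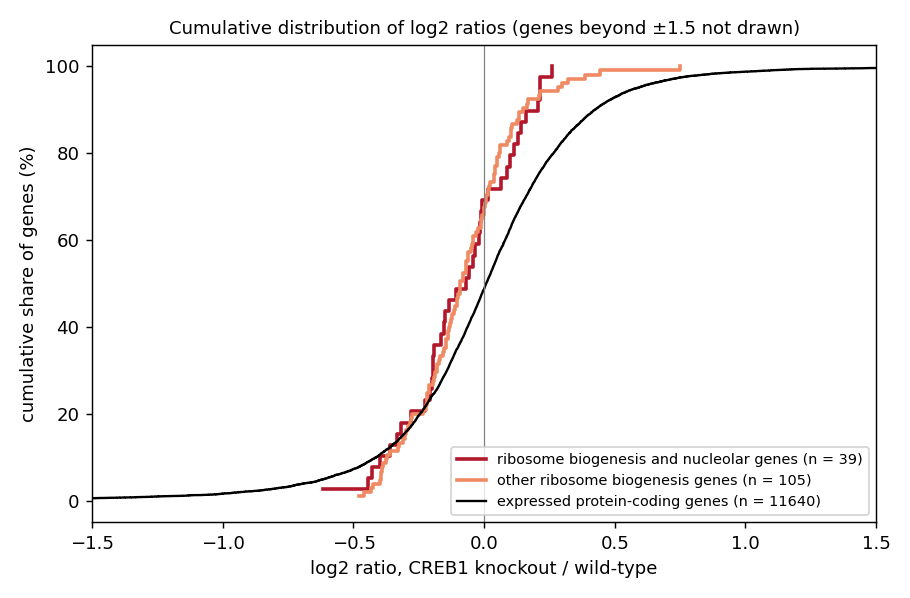
Cumulative share of genes (y axis, %) by log2 ratio, knockout over wild-type (x axis), for the 39 ribosome biogenesis and nucleolar genes, 105 other genes of the pathway and 11640 expressed protein-coding genes. The 39 genes run from -0.62 to 0.26 and cross 0 at 69.2%, left of all protein-coding genes, which cross it at 48.8%; genes beyond the drawn range, 106 of the protein-coding genes, are not shown.

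The 6 lower genes were 4 nucleolar factors, LYAR, GNL3, DDX21 and NPM1, and 2 small subunit factors, UTP14A and RRP9. LYAR, a nucleolar zinc finger protein that promotes rRNA processing and cell growth, had 993 counts (31.1 CPM) in the knockout and 1603 counts (47.6 CPM) in the wild-type library. Its log2 ratio of -0.62 (interval -0.73 to -0.50) left the knockout library at 65.2% of the wild-type level, and the ratios of 9.74% of expressed genes were of this size or larger in either direction. This was the largest ratio in either direction among the 39. GNL3, or nucleostemin, a GTP-binding nucleolar protein of proliferating and stem cells, had 3264 counts (102 CPM) in the knockout and 4669 counts (139 CPM) in the wild-type library, a log2 ratio of -0.44 (interval -0.51 to -0.38). DDX21, an RNA helicase that acts in both RNA polymerase I transcription and rRNA processing, had 4647 counts (145 CPM) in knockout and 6439 counts (191 CPM) in wild-type cells, with a log2 ratio of -0.40 (interval -0.45 to -0.34).

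NPM1, or nucleophosmin, the abundant chaperone of the outer nucleolus, was the most highly expressed of the 39. It had 22328 counts (698 CPM) in the knockout and 30145 counts (896 CPM) in the wild-type library, a log2 ratio of -0.36 (interval -0.38 to -0.33). UTP14A, a protein of the small subunit processome, had 611.64 expected counts (19.1 CPM) in the knockout and 866.97 (25.8 CPM) in the wild-type library, and a log2 ratio of -0.43 (interval -0.58 to -0.28). RRP9, a protein of the U3 snoRNP that starts the cleavage of the precursor, had 1570 counts (49.1 CPM) in the knockout and 2080 counts (61.8 CPM) in the wild-type library, with a log2 ratio of -0.33 (interval -0.43 to -0.24). With total-count scaling NPM1 and RRP9 were no longer 20% lower. Expected counts of NPM1 and UTP14A were fractional, as reads shared with near-identical sequences leave them, so their values depend on how such reads were divided. GNL3 overlaps the expressed genes PBRM1 and GLT8D1 on the opposite strand, and 14 of the 39 have such a neighbour, with a strand setting not given in the sources used here.

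Promoter sequences of these genes were inspected because CREB1 binds the cAMP response element, TGACGTCA, and its core site TGACG, while MYC binds the E-box, CACGTG. RefSeq promoters (GRCh38.p14, 250 bases before to 50 after each transcription start) were found for 33 of the 40 symbols. Over both strands, the full cAMP response element was in the first listed promoter of 1 gene, RRP1 (3.03%), against 3.36% of 9267 expressed protein-coding genes and 1.98% of all 27305 genes with a promoter. The core site, which every full element also contains, was in 16 of 33 promoters (48.5%), against 35.2% of expressed protein-coding genes and 25% of all genes. An E-box was in 12 of 33 (36.4%), against 10.3% of expressed protein-coding genes and 7.43% of all genes. Where any listed promoter of a gene was counted, 16 of 33 (48.5%) had an E-box, against 12.8% of expressed protein-coding genes.

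In the first listed promoter, 2 of the 6 lower genes had an E-box (33.3%). On this basis 16.7% of the genes with an E-box were at least 20% lower, against 19% of those without. For any listed promoter the order was reversed, with 31.2% of genes with and 5.88% of genes without an E-box. Over all expressed protein-coding genes these shares were 12.2% with and 12.9% without an E-box. The core site was in the first listed promoter of 3 of the 6 lower genes (50%), against 35.2% of expressed protein-coding genes. In any listed promoter it was in 4 of the 6 (66.7%), against 41.3%. With any listed promoter counted, 5 of the 6 lower genes had an E-box, NPM1 being the exception. They are shown with 30 bases around the match, 5′ to 3′ on the strand of the gene, with the E-box in capitals, followed by RRP1 with its cAMP response element in capitals.
LYAR (chr4:4290068-4290097, minus strand): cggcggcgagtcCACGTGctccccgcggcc
GNL3 (chr3:52686026-52686055, plus strand): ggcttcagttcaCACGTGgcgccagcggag
DDX21 (chr10:68956604-68956633, plus strand): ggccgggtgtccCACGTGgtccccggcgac
UTP14A (chrX:129905914-129905943, plus strand): accttgggcCACGTGgaaaccaggggccag
RRP9 (chr3:51941892-51941921, minus strand): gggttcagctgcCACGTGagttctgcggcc
RRP1 (chr21:43789510-43789539, plus strand): gtcgcgggctgTGACGTCAcgccacgcgcc

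The match began 64 bases before the listed start in LYAR, 31 in DDX21, 241 in UTP14A and 5 in RRP9, and at base 6 after it in GNL3. In LYAR, GNL3 and DDX21 it was not in the first listed promoter. The 16 genes with an E-box in any listed promoter had a median log2 ratio of -0.18, and the 17 without one -0.02. For the first listed promoter the medians were -0.16 for 12 genes with and -0.03 for 21 genes without an E-box. Over all expressed protein-coding genes the medians were the same, 0.01 for the 1189 with and 0.01 for the 8078 without an E-box. For the core site in any listed promoter the order of the medians was the other way round, -0.06 for 17 genes with and -0.15 for 16 without it. The share called lower at the smaller fold went the opposite way, 4 of 17 genes with it (23.5%) and 2 of 16 without it (12.5%). Over all expressed protein-coding genes the medians were -0.01 with and 0.02 without the core site, and the shares called lower 14% with and 11.9% without it. Expressed protein-coding genes with the full element in any listed promoter had a median of -0.05 and 57.5% below 0, against 0.01 and 48.1% for those without it. MYC had 59.1 CPM in the knockout and 129 CPM in the wild-type library, a log2 ratio of -1.12 (interval -1.20 to -1.05), and its part in the ratios of these genes was not tested. A match of letters does not show that a factor binds there.

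**Figure D2:**
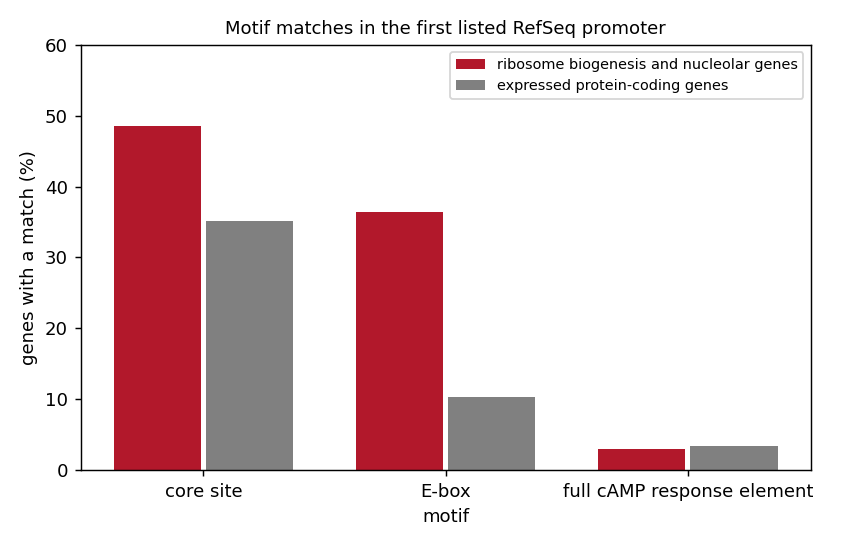
Share of genes (y axis, %) whose first listed RefSeq promoter holds the core site, the E-box or the full cAMP response element (x axis), for the 33 ribosome biogenesis and nucleolar genes with a promoter and for 9267 expressed protein-coding genes. The E-box share is 36.4% against 10.3%, and that of the full element 3.03% against 3.36%.

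Among the 8 nucleolar factors, with a median log2 ratio of -0.34, 4 were at least 20% lower (50%), against 13.1% of all expressed genes. This median was the lowest of 6 role groups, so the group is singled out by these same ratios and its share is no separate result. NPM1 was not called with total-count scaling or after the GC and length correction. NOLC1, a chaperone of snoRNPs, was just short of 20% lower. It had 178 CPM in the knockout and 222 CPM in the wild-type library (log2 ratio -0.32, interval -0.37 to -0.27). NCL, or nucleolin, which binds nascent rRNA, had 10921 counts (342 CPM) in knockout and 11623 counts (345 CPM) in wild-type cells. Its log2 ratio of -0.02 had an interval of -0.05 to 0.02, which did not overlap with that of NPM1. On the other side of 0 lay MYBBP1A, a nucleolar partner of MYB, with 1990 counts (62.2 CPM) in the knockout and 1816 counts (54 CPM) in the wild-type library (log2 ratio 0.21, interval 0.11 to 0.30), and TCOF1, the treacle protein that aids RNA polymerase I transcription, at 0.12 (interval 0.03 to 0.20).

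The snoRNP proteins differed little. Of the box C/D proteins, which carry out rRNA methylation, NOP56 had the lowest log2 ratio, with 5778 counts (181 CPM) in the knockout and 6752 counts (201 CPM) in the wild-type library (-0.15, interval -0.20 to -0.10). FBL, the methyltransferase fibrillarin, had 73.8 CPM in knockout and 81 CPM in wild-type cells (log2 ratio -0.13, interval -0.21 to -0.05). NOP58, the partner of NOP56, had the highest ratio of this group, with 1923 counts (60.1 CPM) in the knockout and 2082 counts (61.9 CPM) in the wild-type library (log2 ratio -0.04, interval -0.13 to 0.05). The box H/ACA proteins convert uridine to pseudouridine, and the intervals of all 4 included 0.

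In that H/ACA group DKC1, the pseudouridine synthase dyskerin, had 2226 counts (69.6 CPM) in knockout and 2437 counts (72.4 CPM) in wild-type cells, the lowest log2 ratio of the 4 (-0.06, interval -0.14 to 0.03). NHP2 had 94.9 CPM in the knockout and 96.2 CPM in the wild-type library and NOP10 had 53.5 CPM in the knockout and 53.9 CPM in the wild-type library, ratios of -0.02 and -0.01. GAR1 had the highest ratio, 0.13, but with 208 counts (6.5 CPM) in the knockout and 200 counts (5.94 CPM) in the wild-type library it was the least expressed of the 39, and its interval was the widest, -0.16 to 0.42. With total-count scaling the ratios of DKC1, NHP2, NOP10 and NOP58 were above 0.

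The 9 factors of the small subunit went both ways, with a median log2 ratio of -0.15. Besides UTP14A and RRP9, the processome protein UTP18 (-0.20, interval -0.29 to -0.10) and NOP14 (-0.16, interval -0.26 to -0.07), another processome protein, lay below 0. BYSL, or bystin, had 15.5 CPM in knockout and 17.2 CPM in wild-type cells, with an interval of -0.33 to 0.02. RRP12, which acts in the maturation and export of pre-ribosomes, had the highest ratio of the 39, with 1706 counts (53.4 CPM) in the knockout and 1501 counts (44.6 CPM) in the wild-type library (log2 ratio 0.26, interval 0.16 to 0.36). With total-count scaling it was at least 25% higher, and no other of the 39 was. UTP20, a large scaffold protein of the processome, lay at 0.16 (interval 0.04 to 0.28), while the intervals of UTP15 (0.14) and HEATR1 (0.07), both subunits that link the processome to transcription, included 0.

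The 10 large subunit factors had a median log2 ratio of -0.13, and 8 lay below 0 (80%), as did 48.8% of all expressed genes. With total-count scaling FTSJ3, PES1 and WDR12 no longer lay below 0. NOP2, an rRNA methyltransferase known as a proliferation antigen, was the lowest, with 1657 counts (51.8 CPM) in the knockout and 2118 counts (62.9 CPM) in the wild-type library (-0.28, interval -0.37 to -0.19). EBNA1BP2 (-0.21), RRP1B (-0.20), NOP16 (-0.20) and RRP1 (-0.19) followed, all with intervals below 0. RRP1 and its relative RRP1B thus had nearly the same ratio, although their knockout levels were 42.5 and 65.1 CPM. NIP7, a factor of rRNA precursor processing, was the highest of this group, with 1327 counts (41.5 CPM) in the knockout and 1205 counts (35.8 CPM) in the wild-type library (log2 ratio 0.21, interval 0.10 to 0.33).

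PES1 and WDR12 form the PeBoW complex with BOP1. PES1 had 166 CPM in the knockout and 174 CPM in the wild-type library (log2 ratio -0.07, interval -0.12 to -0.02). With total-count scaling its ratio was 0.00. WDR12 had 46.3 CPM in knockout and 47.4 CPM in wild-type cells, and FTSJ3, an rRNA methyltransferase-like processing factor, had 105 CPM in both. Their intervals included 0, as did that of RRS1, a factor of early large subunit assembly (log2 ratio 0.10, interval -0.03 to 0.23).

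RNA polymerase I genes had a median log2 ratio of 0.02, and none of the 5 was 20% lower or 25% higher. UBTF, which binds the rRNA gene promoter and keeps it active, had 2395 counts (74.9 CPM) in the knockout and 2172 counts (64.5 CPM) in the wild-type library (log2 ratio 0.21, interval 0.13 to 0.30). POLR1B, the second largest subunit, lay on the other side, with 1150 counts (36 CPM) in the knockout and 1416 counts (42.1 CPM) in the wild-type library (log2 ratio -0.23, interval -0.34 to -0.11). RRN3, the initiation factor that recruits the polymerase, had a log2 ratio of -0.11 (interval -0.20 to -0.01) and fractional counts. The largest subunit POLR1A (0.09) and POLR1C (0.02), a subunit shared with RNA polymerase III, had intervals that included 0. After the GC and length correction the ratio of POLR1A was -0.04 and that of POLR1B -0.27.

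**Figure D3:**
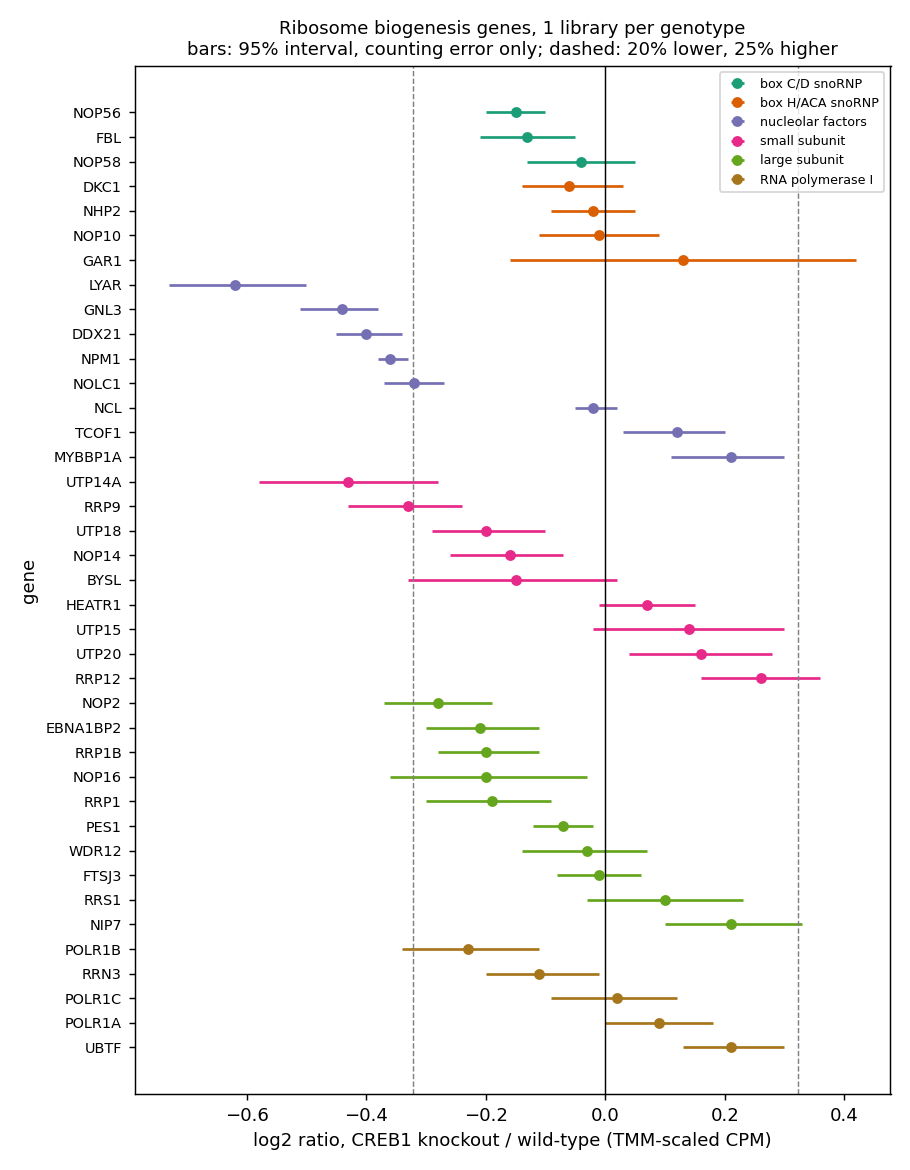
Log2 ratio of TMM-scaled CPM, knockout over wild-type (x axis), of the 39 genes (y axis), coloured by role; bars are 95% intervals for counting error and dashed lines mark 20% lower and 25% higher. LYAR at -0.62 is farthest from 0, 5 of the 8 nucleolar factors lie near or beyond the left dashed line, and no gene lies beyond the right one.

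Levels of different genes were compared per kilobase of transcript, with annotated lengths. Which transcripts these cells expressed was not determined, so ranks between genes are approximate. On this scale the genes spanned a wide range that was alike in both libraries. NPM1 was the highest, at 451 CPM per kilobase in the knockout and 579 in the wild-type library. NHP2 followed, at 110 in knockout and 111 in wild-type cells. UTP20 was the lowest at 4.26 CPM per kilobase in the knockout and 3.81 in the wild-type library. Box C/D and H/ACA proteins other than GAR1 lay between 29.4 and 110 CPM per kilobase in the knockout library, and the RNA polymerase I genes between 6.75 and 33.6.

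**Figure D4:**
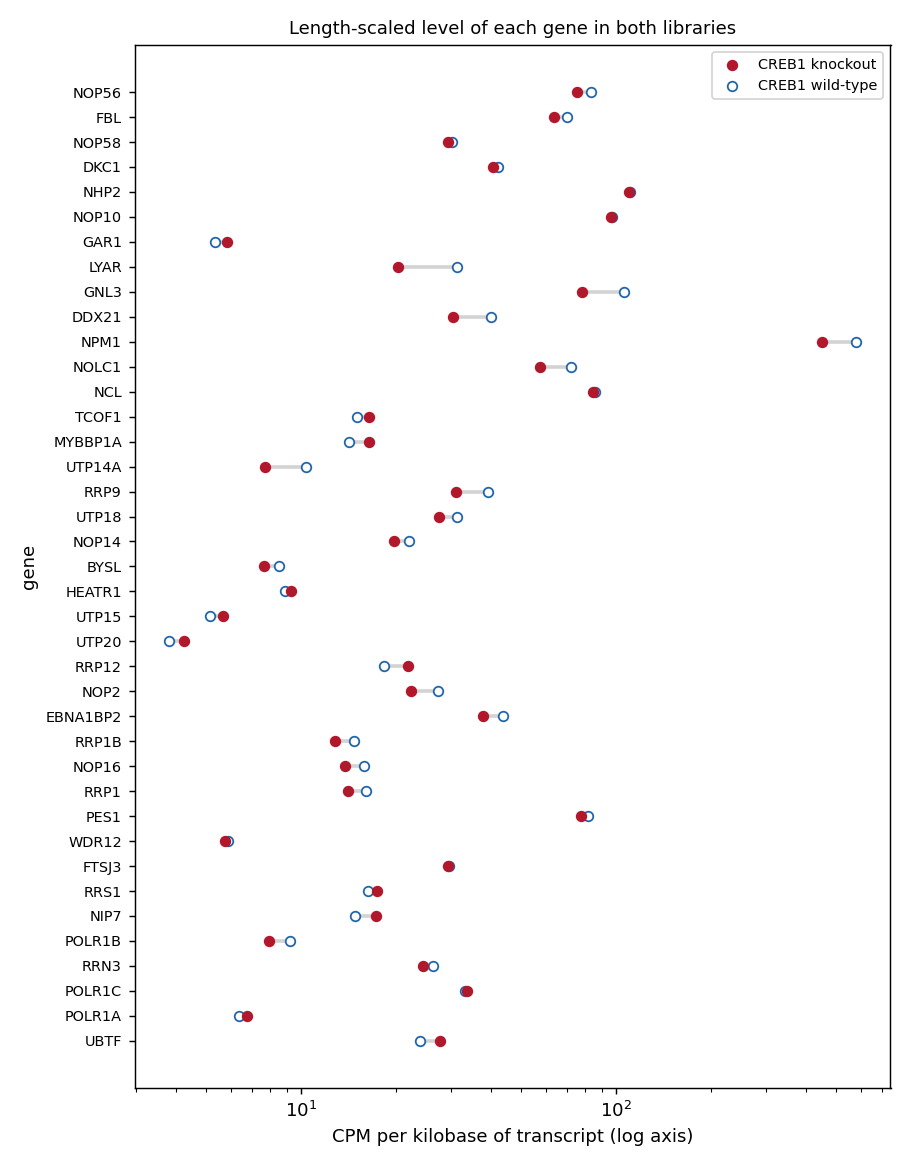
Level of each of the 39 genes (y axis) in CPM per kilobase of transcript (x axis, log axis), with filled points for the knockout and open points for the wild-type library. The points of most genes nearly coincide, and the widest gap is that of LYAR, at 20.4 in the knockout and 31.4 in the wild-type library.

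Other properties that the list did not use were set beside the ratios. Of the 20 genes with transcripts at or under the median length of 2400 bases, 17 lay below 0, against 10 of the 19 longer ones. Spearman's rho between log2 ratio and transcript length was 0.231 across the 39 genes and 0.137 across all expressed protein-coding genes, which share the 2 libraries and are not independent. After a correction for GC content and length it was 0.0441 across the 39, with 27 below 0 and a median of -0.07. That correction subtracts the trend with GC content and length fitted over expressed protein-coding genes of the same 2 libraries. A smaller rho after it is therefore no separate result. The genes lie on 17 chromosomes, and the median log2 ratio of up to 50 nearest expressed protein-coding genes ranged from -0.09 to 0.13. For the 6 lower genes these medians lay between -0.09 and 0.03.

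Several of the genes carry snoRNA genes in their introns. By position in GENCODE release 29, 20 snoRNA genes lay inside 6 of the 39 genes, among them NOP56, NOP58, DKC1, NCL and GNL3. Of these snoRNAs, 10 had 0 counts in both libraries, where a count of 0 allows up to 3 counts, or 0.0938 CPM in the knockout and 0.0892 CPM in the wild-type library. The highest counts were 10 in the knockout and 17 in the wild-type library, so none reached the minimum of 20 counts set for giving a ratio, and no difference was detectable at this depth.

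The remaining ribosome biogenesis genes gave a similar picture. None of 105 expressed genes in 4 further lists was 2-fold lower or higher, beside 1.64% and 1.28% of all expressed genes. At shares this small, the count of 0 does not set these lists apart. Of the 105 genes, 14 (13.3%) were at least 20% lower and 3 (2.86%) at least 25% higher, beside 13.1% and 14.1% of all expressed genes. Their median log2 ratio was -0.09, with 67.6% below 0, beside 0.01 and 48.8% for all expressed genes. Among 42 other small subunit genes, 9 were lower, 4 with total-count scaling, and 1 was higher, with a median of -0.11. UTP25 (-0.48) and the kinase gene RIOK1 (-0.43) were the lowest. KRR1, a small subunit processome protein, stood apart with 3532 counts (110 CPM) in the knockout and 2209 counts (65.6 CPM) in the wild-type library, a log2 ratio of 0.75 (interval 0.67 to 0.83), and the next highest was UTP4 at 0.13.

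Of 39 other large subunit genes, 4 were at least 20% lower and 1 at least 25% higher, with a median of -0.07, and with total-count scaling 0 were lower and 3 higher. The export adaptor NMD3 and RSL24D1, both at -0.39, were the lowest, and NOL9 (0.38) and NVL (0.32) the highest. The 10 other RNA polymerase I genes had a median of 0.01, with POLR1E (-0.30) and TAF1B (-0.29) lowest and TAF1C (0.30) and TAF1A (0.44) highest, TAF1A being the one at least 25% higher, where total-count scaling gave 2. Of 14 genes of the RNA exosome, which trims rRNA precursors, EXOSC5 alone was at least 20% lower (-0.46, with 661 counts in the knockout and 958 in the wild-type library). DIS3 was the next lowest (-0.23), and EXOSC3 (0.11) and EXOSC6 (0.13) were the highest, around a median of -0.10.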

How the data were processed

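RNA-seq libraries of 1 CREB1 knockout clone and of wild-type HCT116 cells were analysed. The authors deposited expected counts per gene, not scaled between libraries; cutadapt 2.0, STAR 2.4.2a, RSEM 1.2.26 and the build hg19 are named per the submitters' processing notes. Annotation release, strand setting and filters: not given in the sources used here. Columns were assigned by genotype name, and 0 columns were left unmapped. Names came from GENCODE release 29 by Ensembl identifier without version, and 52338 of 57820 identifiers (90.5%) matched; unmatched ones held 35.2% of knockout and 37.0% of wild-type counts and remained in the totals.

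Counts were rounded and scaled by TMM (edgeR 4.0.16, R 4.3.3), and log2 ratios used a prior count of 0.5. Exact Clopper-Pearson 95% intervals came from the binomial distribution of the 2 counts given their sum. They treat reads as independent molecules and cover counting error only. Expressed means a mean CPM of at least 1. A gene was called lower or higher at 2-fold, or at 20% lower or 25% higher, with an interval without 0. Transcript length and GC content are medians over the APPRIS principal transcripts of a gene. Where it had none, they are medians over its protein-coding transcripts, or else over all its transcripts. The ratio and interval computation was tested on simulated data.

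The 40 genes, the other lists and the folds were chosen with earlier results of these data known. In each role group the genes with the highest and the lowest ratio are given in full, and in each other list the 2 highest and 2 lowest. MYC and CREB1 were named as context. Alternatives were total-count, DESeq2 1.42.0, upper-quartile and protein-coding TMM scaling, other filters, a prior count of 2, and a GC and length correction (mgcv 1.9.3).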

Additional observations from a re-analysis of the deposited data

How the results depend on the processing

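The count of 0 genes at 2-fold held under each alternative tried. The count of genes at least 20% lower lay between 4 (total-count scaling, without NPM1 and RRP9) and 7 (DESeq2 and upper-quartile scaling, with NOLC1 added), and was 5 after the GC and length correction, which dropped NPM1 and RRP9 and added NOLC1. Without the 5 genes with fractional counts, an alternative chosen after seeing the data, it was 4 of 34 and the median log2 ratio -0.04. Total-count scaling raises all ratios by 0.07. It gave 1 gene (RRP12) at least 25% higher, in place of 0, and left 8 ratios no longer below 0. The GC and length correction changed the sign of 4 ratios, above 0 for NHP2 (0.02) and NOP10 (0.03) and below 0 for HEATR1 (-0.02) and POLR1A (-0.04), and DESeq2 scaling that of POLR1C (-0.01). In the further lists total-count scaling gave 4 lower small subunit genes in place of 9, 0 lower and 3 higher large subunit genes in place of 4 and 1, and 2 higher RNA polymerase I genes in place of 1. TMM over protein-coding genes gave 2 higher large subunit genes, DESeq2 size factors gave 1 lower RNA polymerase I gene in place of 0, and the GC and length correction gave 2 higher RNA polymerase I genes and 2 lower exosome genes, in place of 1 each. Neighbour windows of 20 in place of 50 left 26 rather than 27 genes below their neighbours. With 50 neighbours the medians ran only from -0.09 to 0.13, so this count is no result separate from the 27 genes below 0. The same comparison was not made for all expressed genes. No paired analysis was possible because each genotype has 1 library, and for that reason no replicate could be left out. For snoRNAs inside the genes no alternative was run, since none had enough counts.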

Other observations

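RNAs that act in rRNA processing were also measured, with 2 of 8 listed ones unmatched. SNORD13 (U13), a snoRNA that pairs with small subunit rRNA, had 417 counts in the knockout and 832 in the wild-type library, a log2 ratio of -0.92 (interval -1.10 to -0.75). SNORD118 (U8), which is needed for large subunit rRNA processing, had 543 knockout and 870 wild-type counts after rounding, a log2 ratio of -0.61 (interval -0.76 to -0.45). The U3 gene SNORD3A was at 6720 CPM in the knockout and 7627 CPM in the wild-type library (-0.18, interval -0.19 to -0.17), and has near-identical copies. SNORA73B lay at 0.05, RMRP, the RNA of RNase MRP, at -0.11, and SNORD14A had 3 knockout and 5 wild-type counts. How well such short RNAs are recovered in each library was not tested.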
